A study of Rattus norvegicus with 5 samples.

Results

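Complement is a cascade of blood and tissue proteins that marks microbes, dying cells and immune complexes for removal. It starts through the C1 complex, through lectins or through the alternative pathway, all of which lead to cleavage of C3 and can end in a pore built from C6 and the other terminal components, while soluble and membrane-bound regulators hold it back. The liver makes most of the circulating proteins, and fat tissue also makes several, among them factor D, the adipocyte protease also called adipsin.

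The genes described here are the complement components and regulators C1s, C1r, C2, C3, C6, Cfb, Cfi, Clu and Serping1. They were taken by their names, with earlier results of these data known. Every probe set annotated with exactly 1 of these symbols was used. That gave 8 probe sets for 7 of the 9 genes, out of 31042 probe sets on the array besides controls, of which 20826 have 1 symbol. C2 and Cfb, which lie next to each other in the RefSeq gene table, have no probe set of their own here, because the 4 probe sets that carry either symbol carry both. Clu has 2 probe sets and the other genes 1 each.

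The tissue was the mesenteric fat around the pancreas of male Wistar rats, 7 weeks old at the start, kept for 30 days on 1 of 2 diets. The standard group (3 samples) ate chow with 8% of calories as fat and is called lean in the labels, and the cafeteria group (2 samples), called obese, had a cafeteria diet, in which fat made up 66% of calories. The labels name no genetic change and no drug for either group. Each sample was hybridised to 1 Affymetrix rat array, and the number of arrays limits the precision of every value below.

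Values are log2 expression levels, so a difference of 1 is a doubling. The arrays had medians of 5.70 to 5.75. Adipocyte markers read high on all of them, with a mean over 8 genes of 11.37 to 11.50 in standard and 11.85 and 12.07 in cafeteria samples. The array of standard replicate 1 carried pancreatic acinar transcripts, with a mean over 12 genes of 9.03 against 4.17 to 4.62 on the other 4 arrays. The list of hepatocyte markers had a mean of 4.94 to 5.16 over 9 genes. Albumin (Alb), at 10.92 to 13.12, was the member of that list that read above 6. The others read between 3.33 and 5.61, with Fgb and Ahsg between 3.65 and 4.35.

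Over the 7 complement probe sets that passed the filter on dim signals, every mean was lower in cafeteria samples, as were 51.3% of all means, with a median difference of -0.52, against a median of -0.0036 over all 21729 probe sets tested. The brighter Clu probe set, C1r and C6 had the smallest p-values, and for these probe sets and C1s both cafeteria values were under every standard value. Adjusted over all probe sets (limma, Benjamini-Hochberg), none of the members was called at 0.05, and 0% of all probe sets were. At an unadjusted p under 0.05 there were 3 of 7 members, all lower, where 6.62% of all probe sets were lower and 6.05% higher by that rule. That count was 1, Clu, without standard replicate 1, 2 or 3, and 5 without cafeteria replicate 1, and the median difference was -0.10 without cafeteria replicate 2. The arrays of the diets did not overlap, with cafeteria below, for 4 of the 7, against 14.1% of all probe sets, and with cafeteria above for 0 of the 7, against 13.3%. The members were chosen with earlier results of these data known, so these counts describe the members and are not a test. In bulk tissue, fewer cells that make a transcript and less of it per cell cannot be told apart.

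**Figure D1:**
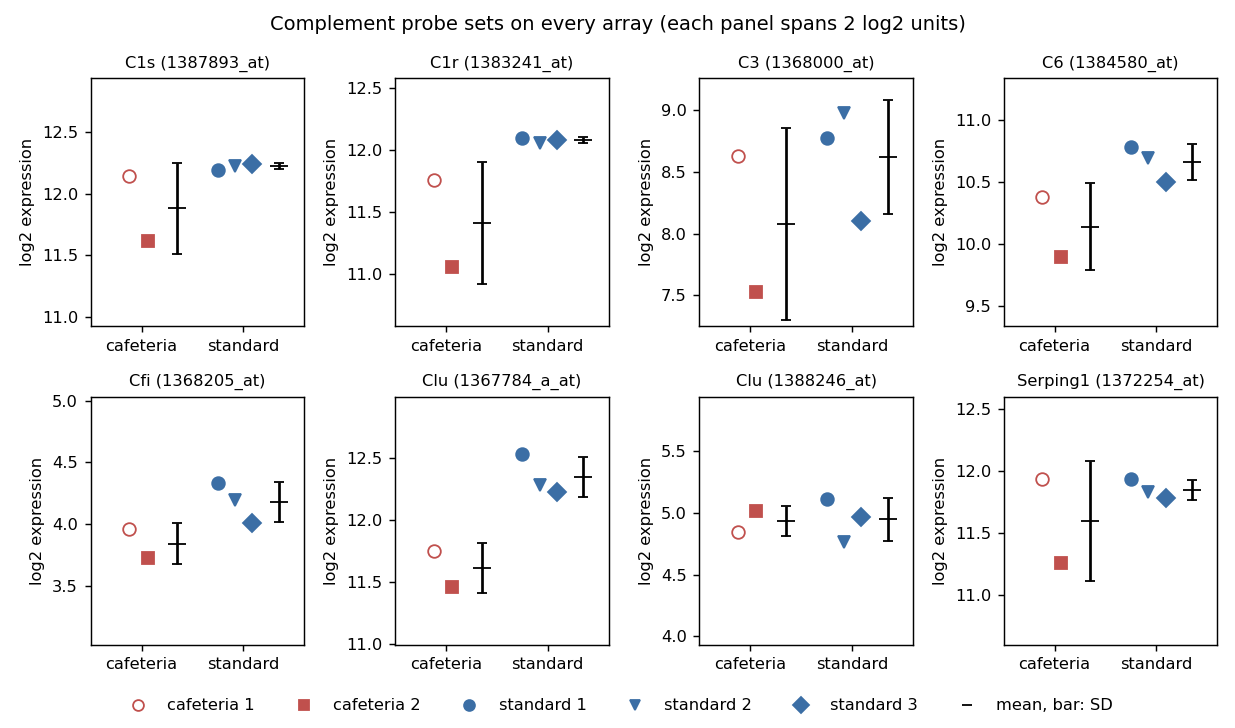
Log2 expression (vertical axis, 2 log2 units per panel) of each of the 8 complement probe sets on the 2 cafeteria and 3 standard arrays, with the mean and SD of each group in black. Cafeteria replicate 2 is the lowest array for every probe set except the dim Clu probe set 1388246_at, while cafeteria replicate 1 lies near or among the standard arrays for C1s, C3 and Serping1.

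C1r and C1s are the serine proteases of the C1 complex: C1r activates itself and then cuts C1s, which goes on to cleave C4 and C2. The genes are neighbours in the RefSeq gene table. C1r (probe set 1383241_at) read 11.76 and 11.06 in cafeteria samples and 12.10, 12.06 and 12.08 in standard samples. Both cafeteria arrays were thus below a standard group whose arrays lay within 0.05 of each other. The group means were 11.41 ± 0.49 (SD, n = 2) and 12.08 ± 0.02 (SD, n = 3). The difference was -0.67 ± 0.22 (SE), with a 95% interval of -1.25 to -0.09, or 1.59-fold lower (limma, adjusted p = 0.353). An exact two-sided permutation of the arrays gave p = 0.1, which is the lowest value that its 10 splits can reach.

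C1s (1387893_at) read 12.14 and 11.62 in cafeteria samples and 12.19, 12.22 and 12.24 in standard samples. Cafeteria replicate 1 was below the lowest standard array by only 0.05, and cafeteria replicate 2 by 0.57. The difference was -0.34 ± 0.17 (SE), with a 95% interval of -0.77 to 0.10 that includes 0 (limma, adjusted p = 0.476). Without cafeteria replicate 2 it was -0.08, and without cafeteria replicate 1 it was -0.59. For C1r the same values were -0.32 and -1.02, so both cafeteria arrays were lower for C1r and mainly one of them for C1s.

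Serping1 encodes the C1 inhibitor, which binds and inactivates C1r and C1s. Its probe set (1372254_at) read 11.94 and 11.26 in cafeteria samples and 11.94, 11.83 and 11.78 in standard samples. Cafeteria replicate 1 was the highest of all 5 arrays and cafeteria replicate 2 the lowest, so the groups overlapped. The difference of -0.25 ± 0.22 (SE), with a 95% interval of -0.83 to 0.33, was within the spread between replicates (limma, adjusted p = 0.600). With cafeteria replicate 2 left out it was 0.10, and with replicate 1 left out -0.59.

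Relative to Serping1 on the same array, a measure chosen after the values were seen, C1r was lower in both cafeteria samples. On this log2 ratio scale C1r stood at -0.18 and -0.19 in cafeteria samples and at 0.17, 0.23 and 0.30 in standard samples. The difference was -0.42 with both cafeteria arrays, -0.41 with cafeteria replicate 1 alone and -0.42 with replicate 2 alone, while for C1r itself these arrays were 0.70 apart. They were 0.69 apart for Serping1, so the closeness of the ratios on these arrays follows from the choice of Serping1. The ratio of C1s differed by -0.09, and its arrays overlapped between diets. The ratio of the brighter Clu probe set differed by -0.49, which was -0.69 with cafeteria replicate 1 alone and -0.29 with replicate 2 alone. That of C6 differed by -0.27, and by -0.37 and -0.17 with these arrays alone. The ratios of C3 and of the dim Clu probe set differed by -0.29 and 0.23, and their arrays overlapped between diets. Serping1 itself was lowest on cafeteria replicate 2, as were most members, and no test is given for these ratios.

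C3 is the protein on which all the starting routes converge, and its fragments coat targets and recruit immune cells. The C3 probe set (1368000_at) read 8.63 and 7.53 in cafeteria samples and 8.78, 8.98 and 8.10 in standard samples. Cafeteria replicate 1 lay between the standard arrays. The difference was -0.54 ± 0.44 (SE), with a 95% interval of -1.70 to 0.62 (limma, adjusted p = 0.573). C3 varied more among the standard arrays than the other members, over 0.87 log2 units, a range exceeded by 2.32% of probe sets tested. Without cafeteria replicate 2 its difference was 0.0085, without cafeteria replicate 1 it was -1.09, and without standard replicate 2 it was -0.36.

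C6 is a terminal component that joins the membrane attack complex after C5 is cleaved. It read 10.38 and 9.89 in cafeteria samples and 10.78, 10.69 and 10.50 in standard samples (1384580_at). Both cafeteria arrays were below all standard arrays, cafeteria replicate 1 by 0.11. The means were 10.14 ± 0.35 (SD, n = 2) and 10.66 ± 0.14 (SD, n = 3). The difference was -0.52 ± 0.18 (SE), with a 95% interval of -0.99 to -0.04, or 1.43-fold lower (limma, adjusted p = 0.364). The exact permutation p, two-sided, was 0.1. With cafeteria replicate 2 left out the difference was -0.27, and with replicate 1 left out -0.76. For C1r and C6 alike, leaving out any of the 3 standard arrays raised the unadjusted p above 0.05, to between 0.0871 and 0.0938 for C1r and between 0.0547 and 0.115 for C6, and leaving out cafeteria replicate 2 raised it to 0.157 for C6.

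Clu encodes clusterin, a secreted chaperone that binds the forming membrane attack complex and keeps it out of membranes. Its brighter probe set (1367784_a_at) read 11.75 and 11.46 in cafeteria samples and 12.53, 12.28 and 12.23 in standard samples. The nearer cafeteria array lay 0.48 below the lowest standard array. The means were 11.61 ± 0.20 (SD, n = 2) and 12.35 ± 0.16 (SD, n = 3). The difference was -0.74 ± 0.14 (SE), with a 95% interval of -1.11 to -0.37, or 1.67-fold lower (limma, adjusted p = 0.253). It lay between -0.88 and -0.59 with any 1 array left out, with an unadjusted p of at most 0.0349. The exact permutation p, two-sided, was 0.1.

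The other Clu probe set (1388246_at) did not show this difference. It read 4.85 and 5.02 in cafeteria samples and 5.11, 4.76 and 4.97 in standard samples, and the arrays of the groups overlapped. The difference was -0.01 ± 0.13 (SE), with a 95% interval of -0.35 to 0.32 that does not reach the difference of the brighter probe set (limma, adjusted p = 0.965). Its mean stood at the 40th percentile of all probe sets, and that of the brighter one at the 99.3rd.

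Cfi encodes factor I, the protease that cuts C3b and C4b with the help of cofactors. Its probe set (1368205_at) had a mean at the 25.5th percentile and did not pass the filter on dim signals, which was set at the 30th percentile. It read 3.96 and 3.73 in cafeteria samples and 4.33, 4.19 and 4.01 in standard samples, with cafeteria replicate 1 below the lowest standard array by 0.05. Fitted without the filter, the difference was -0.34 ± 0.13 (SE) (limma, adjusted p = 0.474). No detection call for this dim probe set was used here.

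**Figure D2:**
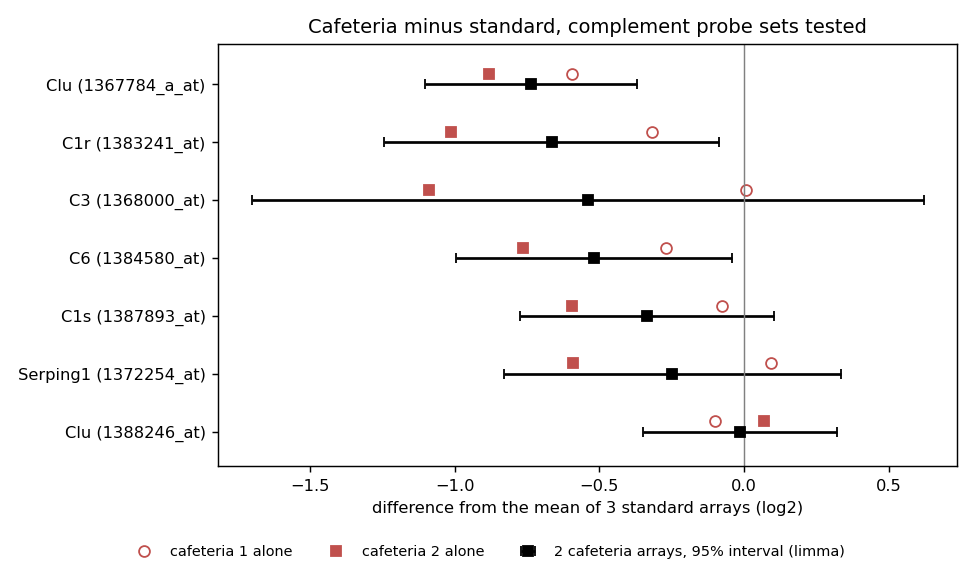
Difference in log2 expression from the mean of the 3 standard arrays (horizontal axis) for the 7 complement probe sets tested, with both cafeteria arrays together (black, 95% interval of limma) and each alone (red). The intervals of the brighter Clu probe set, C1r and C6 lie below 0. The values of cafeteria replicate 2 alone lie between -1.09 and -0.59 for all but the dim Clu probe set.

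The cafeteria arrays differed from each other for most members. Cafeteria replicate 1 was above replicate 2 for 6 of the 7 member probe sets tested, and for 9330 of all 21729 probe sets tested. The median gap was 0.52 over these 7, where the median gap over all probe sets tested was 0. The gap was 1.10 for C3, 0.70 for C1r and 0.69 for Serping1, and 0.93%, 2.75% and 2.85% of all probe sets had a larger gap in that direction. For 5 of the 7 members, 71.4%, the gap between the cafeteria arrays was larger than the whole range of the 3 standard arrays, which held for 40.2% of all probe sets. Averaged over the brightest probe set of the 6 genes tested, after centring each, the members stood at 0.01 and -0.62 on the cafeteria arrays and at 0.30, 0.25 and 0.06 on the standard arrays.

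The genes whose pattern over the 5 arrays was nearest to this mean, by root mean square distance of the centred log2 values, were Etv1, an ETS transcription factor, at 0.011, Pstpip2 at 0.036, the kinase gene Map3k1 at 0.037, Arrb2, which encodes a beta-arrestin, at 0.038 and Fcmr, which encodes a receptor for IgM, at 0.039. Etv1 (1392477_at) read 7.78 and 7.14 in cafeteria samples and 8.08, 8.02 and 7.85 in standard samples. Among the members, C6 was nearest to their mean at 0.048 and C3 farthest at 0.27. With 5 arrays, close patterns are easily found among so many probe sets.

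RefSeq (GRCr8) gives a start site window for 4 members, C1r, C3, C6 and Cfi. The 250 bases before the start are shown for C1r, C3 and C6, because these genes passed the filter and Cfi did not. All 4 genes read lowest on cafeteria replicate 2, so that does not set the genes shown apart from Cfi. Capitals mark matches to TTGCNNAA, the core letters bound by C/EBP factors, which are active in fat and liver cells. The match lies on the reverse strand for C1r and C6.
C1r, chr4:159098763-159099012, plus strand: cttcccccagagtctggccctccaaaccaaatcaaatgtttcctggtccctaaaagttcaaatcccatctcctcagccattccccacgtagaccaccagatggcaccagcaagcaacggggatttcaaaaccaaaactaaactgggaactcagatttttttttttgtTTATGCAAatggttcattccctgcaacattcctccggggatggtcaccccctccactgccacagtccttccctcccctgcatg
C3, chr9:2201340-2201589, minus strand: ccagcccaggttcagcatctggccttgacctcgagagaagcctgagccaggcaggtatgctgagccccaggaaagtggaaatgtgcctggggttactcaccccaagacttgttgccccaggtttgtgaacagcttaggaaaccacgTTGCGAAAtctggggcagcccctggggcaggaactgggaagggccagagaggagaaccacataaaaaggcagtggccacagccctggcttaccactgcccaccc
C6, chr2:55573383-55573632, plus strand: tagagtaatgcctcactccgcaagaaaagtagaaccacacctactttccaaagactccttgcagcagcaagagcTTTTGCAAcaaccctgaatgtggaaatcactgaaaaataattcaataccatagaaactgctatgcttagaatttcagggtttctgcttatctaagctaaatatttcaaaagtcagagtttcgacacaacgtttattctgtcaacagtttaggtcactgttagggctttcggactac

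The matches begin 83 bases before the start of C1r, 104 before that of C3 and 176 before that of C6, and Cfi had none. TTGCNNAA on either strand was found in 9.22% of 33469 RefSeq windows of the same length. TTCNNNGAA, the letters of the interferon-gamma activated site, GAAANNGAA, the core of the interferon-stimulated response element, and the NF-kB consensus were also searched on both strands. They are found in 7.67%, 8.12% and 6.33% of windows and in 0 of the 4 members' windows, so no match overlapped another. A match is a description of letters and not of binding.

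The rest of the pathway was described over 54 listed genes, of which 38 have a probe set with 1 symbol and 32 passed the filter, at 1 probe set per gene. Of these 32 genes, 9 were lower and 1 higher at an unadjusted p under 0.05, where 6.88% of all genes tested were lower and 6.73% higher by that rule, and 0 had an adjusted p under 0.05. The arrays did not overlap for 10 genes with cafeteria below and 3 with cafeteria above, against 14.7% of all genes in either direction. Without standard replicate 1 the number of genes at an unadjusted p under 0.05 was 4 in place of 10, and without standard replicate 2 it was 3. The list includes the 6 members tested. Without them, 6 of 26 genes were lower and 1 higher, 14 means were lower and 12 higher, and the median difference was -0.16. The list was written with earlier results of these data known.

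Among the non-members, Cfd, the factor D of fat cells that cuts factor B, read 13.15 and 13.31 in cafeteria samples and 13.62, 13.59 and 13.67 in standard samples. Both cafeteria arrays were lower, and cafeteria replicate 2 was here the higher of them. The difference was -0.40 ± 0.07 (limma, adjusted p = 0.252). C5ar1, the receptor for the C5a fragment on myeloid cells, differed by -0.55 ± 0.18 (limma, adjusted p = 0.346).

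Differences of the same direction were found for C4bpa, a subunit of the C4b-binding protein, by -0.79 ± 0.27, and for Cd93, a receptor of endothelial and myeloid cells, by -0.72 ± 0.24, although a second Cd93 probe set gave -0.17 ± 0.12. Masp2, a protease of the lectin pathway, differed by -0.57 ± 0.19, while its other 2 probe sets were too dim to be tested. Susd4, a complement regulator, differed by -0.23 ± 0.07. The difference of C4bpa was -0.39 without cafeteria replicate 2, and those of Cd93 and Masp2 were -0.39 and -0.28 without cafeteria replicate 1. C4bpa and Susd4 read below the array medians in all samples. Their adjusted p lay between 0.318 and 0.364 (limma).

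Mbl1, a mannose-binding lectin that starts the lectin pathway, was the higher gene among the 10 at an unadjusted p under 0.05, by 0.35 ± 0.07 (limma, adjusted p = 0.253). It read 5.59 and 5.48 in cafeteria samples and 5.13 to 5.25 in standard samples, below the array median in all of them. For Masp1, another protease of the lectin pathway, and for Mbl2, both cafeteria arrays were also above every standard array. Their differences were 0.32 ± 0.14 and 0.14 ± 0.09 on their brightest probe sets (limma, adjusted p = 0.443 and 0.514). The other Masp1 probe sets differed by 0.31 ± 0.12 and 0.10 ± 0.07. The Mbl2 probe set was dim, with a mean at the 30.35th percentile, just past the filter. It read 4.31 and 4.45 in cafeteria samples and 4.13 to 4.30 in standard samples. The other Mbl2 probe set was too dim to be tested, and its arrays overlapped between diets. The subunits of C1q, the recognition part of the C1 complex, differed by -0.36 for C1qa, -0.36 for C1qb and -0.40 for C1qc, with unadjusted p from 0.0948 to 0.240 (limma), and their arrays overlapped between diets. Without cafeteria replicate 2 the differences of C1qa and C1qc were -0.16 and -0.20, without cafeteria replicate 1 they were -0.56 and -0.60, and that of C1qb was -0.16 without standard replicate 1 and -0.58 without standard replicate 3. The membrane regulators Cd55 and Cr1l had differences of 0.20 ± 0.18 and 0.03 ± 0.06 on their brighter probe sets, which is within the spread between replicates. Their dimmer probe sets differed by 0.24 ± 0.24 and -0.27 ± 0.18, and the arrays of both overlapped between diets.

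**Figure D3:**
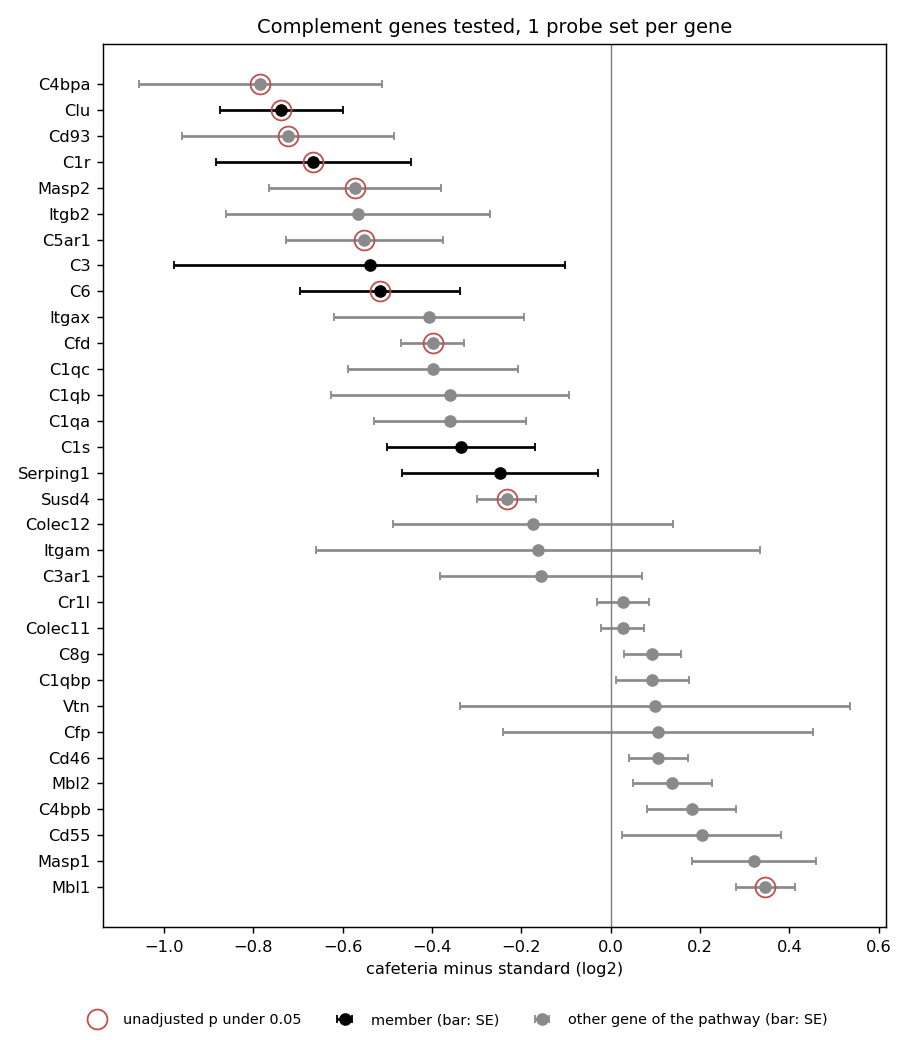
Difference in log2 expression, cafeteria minus standard (horizontal axis), with its SE for the 32 complement genes tested, at 1 probe set per gene, with the 6 members in black and the other 26 genes in grey. Red rings mark the 10 genes at an unadjusted p under 0.05, of which 9 lie below 0 and Mbl1 above.

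Markers of the cells that the tissue can hold moved with the members in part. Macrophage genes were lower in cafeteria samples for 9 of 9 markers, where 50.85% of all genes tested were lower in the mean. The macrophage list had a mean of 9.77 and 9.47 against 9.65 to 10.03. Its markers were lower on cafeteria replicate 2 than on replicate 1 for 8 of 9, as were 9330 of all 21729 probe sets tested. Mesothelial genes had a list mean of 9.62 on cafeteria replicate 1, 8.75 on replicate 2 and 9.04 to 9.23 on standard arrays, with all 8 markers lower on replicate 2 than on replicate 1. The defining marker Msln read 11.41 and 10.27 on these arrays and 10.67 to 10.76 on standard arrays. Against standard samples, 6 of the 8 mesothelial markers were higher in the mean, while Wt1 and Lrrn4 were lower, by -0.48 and -0.29.

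T cell and mast cell lists had the same order. All 9 and all 8 markers were lower on cafeteria replicate 2 than on replicate 1, where 9330 of all 21729 probe sets tested were. Their means were 5.67 and 5.16 for T cells against 5.69 to 6.16 on standard arrays, and 7.60 and 6.76 for mast cells against 7.43 to 8.24. Endothelial genes had the opposite order, 8.29 on cafeteria replicate 1 and 8.76 on replicate 2, against 8.89 to 9.05. The list of fibroblast and progenitor genes had a mean of 11.68 and 11.50 in cafeteria samples against 11.31 to 11.39. In it 7 of 9 markers were higher, while Dpp4 and Pdgfra were lower in the mean, by -0.25 and -0.11. Interferon response genes were lower for 17 of 20, with a mean of 7.25 and 7.05 against 7.49 to 7.84. Smooth muscle and pericyte genes were lower for 6 of 8, with a mean of 8.98 and 8.86 against 8.52 to 10.45. At an unadjusted p under 0.05 (limma), 6.88% of all genes tested were lower and 6.73% higher. Lower by that rule were 12 of 20 interferon response, 3 of 9 endothelial, 1 of 9 macrophage and 1 of 8 smooth muscle genes. Higher were 4 of 8 adipocyte, 2 of 9 fibroblast and 1 of 8 smooth muscle genes. The mesothelial, T cell and mast cell lists had 0 in either direction. The part of any of these in the complement differences was not tested.

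**Figure D4:**
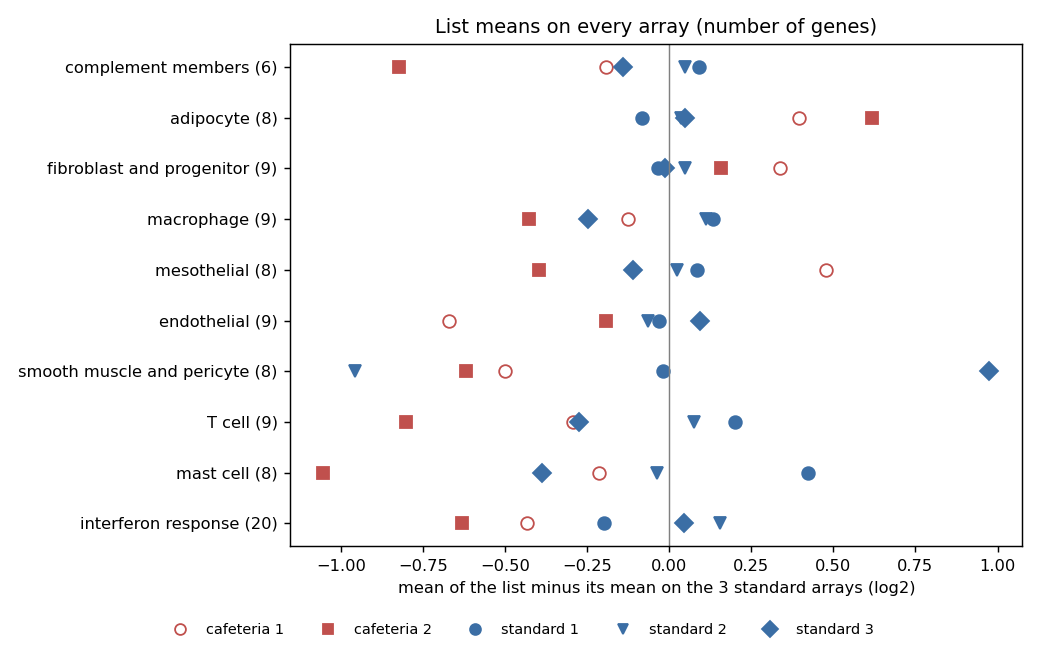
Mean log2 expression of marker lists on every array, relative to the mean of the 3 standard arrays (horizontal axis), with the number of genes in brackets and the 6 complement genes tested in the top line. Cafeteria replicate 2 is the lowest array for the complement, macrophage, mesothelial, T cell, mast cell and interferon response lines, and cafeteria replicate 1 for the endothelial line.

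Leaving out standard replicate 1, the array with acinar transcripts, gave differences of -0.65 for C1r, -0.35 for C1s, -0.20 for Serping1, -0.46 for C3, -0.45 for C6 and -0.65 for the brighter Clu probe set.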

How the data were processed

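Total RNA from each sample was hybridised to an Affymetrix GeneChip array with 1 value per probe set. The values are log2 expression as deposited by the authors; RMA and the affy package are listed, with no version, in the submitters' processing notes. RMA makes array distributions alike, which can hide a shift shared by most transcripts. Other steps were not given in the sources used. Groups follow the sample titles, and samples are described as independent.

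After removal of 57 control probe sets, 21729 probe sets with a mean over all arrays above the 30th percentile were tested with limma 3.58.1 in R 4.3.3 (lmFit, eBayes, cafeteria minus standard, two-sided, Benjamini-Hochberg, 3 residual and 1.50 prior degrees of freedom), a procedure tested on simulated data. Single values were also tested by exact permutation of the absolute difference over 10 splits. Symbols come from GEO's platform annotation: 20826 probe sets have 1 symbol, 436 have several and 9780 have none. All identifiers of the 7 measured genes matched RefSeq.

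Named genes are all member probe sets, listed pathway genes with an unadjusted p under 0.05, the 5 nearest patterns and markers. Genes of the wider list were represented by their brightest probe set. C1q subunits, Cd55, Cr1l, Masp1 and Mbl2 were added after their values were seen. Masp1 and Mbl2 are given for the analysis reported only. Members and lists were chosen with earlier results of these data known. Alternatives were other filters, normalizations, variance models, array weights, a replicate block and each array left out. Figures used matplotlib 3.10.9.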

Additional observations from a re-analysis of the deposited data

How the results depend on the processing

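With 2 against 3 arrays, 0 probe sets passed the threshold under any of the 15 settings, where between 1874 and 4171 had an unadjusted p under 0.05 (limma). The differences of C1r, C1s, C6 and the brighter Clu probe set were negative in all 15 settings. Changing the filter, the intensity trend or the variance moderation cannot alter a difference, so those settings only repeat the main value. C3 and Serping1 changed sign in 1 setting, without cafeteria replicate 2, at 0.0085 and 0.095. With single arrays left out they ranged from -1.09 to 0.0085 and from -0.59 to 0.095, and the dim Clu probe set from -0.107 to 0.0694. That probe set changed sign with array weights, at 0.0308, and also without cafeteria replicate 1 (0.0694) and without standard replicate 1 (0.0662). Of 12 other pathway genes, Cd55 and Cr1l changed sign: Cd55 was -0.0798 without cafeteria replicate 2 and ranged to 0.487, and Cr1l was -0.0058 without standard replicate 3 and with the replicate block and ranged to 0.0507. The number of members at an unadjusted p under 0.05, 3 in the analysis reported, was 1 without variance moderation and 1 to 5 with single arrays left out. For the wider complement list that number, 10, was 4 without variance moderation and 3 to 13 with single arrays left out. The members' median difference, -0.52, ranged from -0.76 to -0.10 with single arrays left out. Where a single cafeteria array was left, it was assumed to vary like the standard group. Samples share only their replicate numbers: deviations of same-numbered arrays correlated at 0.08 and -0.04. The deviations of the 2 cafeteria arrays from their mean mirror each other, so these correlations are not independent checks. The replicate block, with 1 residual degree of freedom, gave 2 members at an unadjusted p under 0.05 and a median of -0.60. Standard replicate 3 is alone in its block, so the differences equal those without that array. The other arrays are paired by number alone. With that block C1qa, C1qb and C1qc had an unadjusted p under 0.05, from 0.0163 to 0.0428 (limma, adjusted p from 0.473 to 0.480).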

Other observations

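The 4 probe sets that carry the symbols of both C2 and Cfb were attributed to neither gene. Of these, 1389470_at read 11.39 and 10.49 in cafeteria samples and 11.44 to 11.73 in standard samples, a difference of -0.61 ± 0.29 (SE). The others differed by -0.48 ± 0.23 (1383392_at), -0.42 ± 0.23 (1393219_at) and 0.02 ± 0.18 (1383391_a_at), with adjusted p from 0.468 to 0.974 over all 4 (limma). All 4 were lower on cafeteria replicate 2 than on every other array.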
